A study of Homo sapiens with 6 samples.

Results

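Transcripts of 9 genes of prostate lineage identity were examined on 6 Affymetrix arrays. The RNA came from PC3, a human line grown from a bone metastasis of a prostate carcinoma. They are the transcription factors FOXA1, FOXA2, SPDEF and ERG, the kallikrein proteases KLK2 and KLK3, the membrane protease TMPRSS2, the phosphatase ACP3 and the surface protein STEAP1. The members were the 21 probe sets, of 22277 in the table, whose single annotated gene symbol is one of these 9 names. SPDEF had 5 of them, FOXA2, ERG and KLK2 had 3 each, KLK3 and TMPRSS2 had 2 each, and FOXA1, ACP3 and STEAP1 had 1 each.

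Both groups were PC3 cells grown in RPMI medium. The 3 arrays labelled control (replicates 1 to 3) came from cells whose titles say wild type and whose source label says vector only. The 3 arrays labelled PSMA (replicates 4 to 6) came from cells said to carry the pLNCX-PSMA plasmid, which encodes prostate-specific membrane antigen. By the protocol, 3 µg of plasmid and 2 µg of FUGENE 6 were applied for 30 min, and puromycin selection began after 72 h of recovery. The labels do not say whether either line was 1 clone or a pool, or whether the 3 replicates of a group came from different cultures. The p-values may therefore rest on variation among these arrays that could be purely technical.

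Signal for FOLH1, the gene of prostate-specific membrane antigen, went against the labels. Its brightest probe set, shared with the paralog FOLH1B, gave 480.8 ± 65.3 (SD, n = 3) for the control label against 12.5 ± 3.44 for the PSMA label. Every direction below therefore follows the labels as deposited, and "higher" means higher under the PSMA label, which is the group with less FOLH1 signal. Each array had a median intensity of 51.7 to 52.9 in arbitrary units. On the log2 scale, Pearson's r (computed over probe sets, not independent replicates) was 0.9976 to 0.9981 for the 6 within-group pairs of arrays and 0.9874 to 0.9878 for the 9 between-group pairs. The luminal keratin gene KRT18, at 6362 ± 190 and 4814 ± 88.3, and the epithelial adhesion gene EPCAM, at 4715 ± 114 and 3704 ± 104, were bright in both groups. The alpha-catenin gene CTNNA1, known to be deleted in PC3, read 17.6 ± 1.43 and 20.8 ± 0.620. None of 7 leucocyte markers and 1 of 8 endothelial markers (PECAM1) passed the filter on dim probe sets. The summed level of the leucocyte markers was 92.2 to 101 on arrays labelled control and 108 to 110.3 on arrays labelled PSMA. The brightest of them, CD3E, read 23.7 ± 3.24 and 28.5 ± 2.14, with overlapping groups. ITGAM read 21.1 ± 1.26 and 28.5 ± 1.67 without overlap (log2 difference 0.43).

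In prostate luminal cells, the pioneer factor FOXA1 opens chromatin for androgen signalling, which drives secretory genes such as KLK3, which encodes prostate-specific antigen, KLK2 and TMPRSS2. SPDEF is an ETS factor of secretory epithelium, FOXA2 is a relative of FOXA1 best known from developing endoderm and from neuroendocrine prostate tumours, and ERG is an ETS factor of endothelium that many prostate tumours express through fusion to TMPRSS2.

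Promoters are shown for the kallikrein pair, since these are the classical androgen-driven members, and for the members that differed between the groups and have an entry in the RefSeq table of build GRCh38.p14. Of the 9 members 7 had an entry, and FOXA2 and TMPRSS2 had none. Each line gives the 250 bases before the annotated start, 5′ to 3′ on the gene's strand, in lower case with motif matches in capitals. The motifs searched on both strands were the androgen response half-site AGAACA, the TATA box TATAAA, the forkhead cores TGTTTAC and TATTTAC, and the ETS site CCGGAAGT; in these windows no match overlapped another.
KLK3 (chr19:50854665-50854914, plus strand): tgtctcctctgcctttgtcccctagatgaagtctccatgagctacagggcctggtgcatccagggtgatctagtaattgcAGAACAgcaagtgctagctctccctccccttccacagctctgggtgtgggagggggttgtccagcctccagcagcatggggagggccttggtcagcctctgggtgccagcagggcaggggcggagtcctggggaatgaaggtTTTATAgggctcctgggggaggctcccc
KLK2 (chr19:50873189-50873438, plus strand): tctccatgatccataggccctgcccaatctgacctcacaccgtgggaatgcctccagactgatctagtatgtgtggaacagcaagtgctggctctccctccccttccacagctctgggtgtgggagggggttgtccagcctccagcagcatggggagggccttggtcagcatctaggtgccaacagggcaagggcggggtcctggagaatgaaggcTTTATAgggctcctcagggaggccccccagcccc
FOXA1 (chr14:37595250-37595499, minus strand): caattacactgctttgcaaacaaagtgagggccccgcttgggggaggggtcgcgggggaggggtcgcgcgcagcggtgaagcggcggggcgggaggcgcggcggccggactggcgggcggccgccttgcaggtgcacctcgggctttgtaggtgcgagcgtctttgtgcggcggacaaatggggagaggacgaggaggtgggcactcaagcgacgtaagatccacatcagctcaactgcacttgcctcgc
SPDEF (chr6:34556330-34556579, minus strand): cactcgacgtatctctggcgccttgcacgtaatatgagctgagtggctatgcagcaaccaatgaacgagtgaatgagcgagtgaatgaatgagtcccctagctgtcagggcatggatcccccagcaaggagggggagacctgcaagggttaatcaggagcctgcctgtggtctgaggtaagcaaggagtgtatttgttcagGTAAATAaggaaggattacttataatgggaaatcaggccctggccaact
STEAP1 (chr7:90154219-90154468, plus strand): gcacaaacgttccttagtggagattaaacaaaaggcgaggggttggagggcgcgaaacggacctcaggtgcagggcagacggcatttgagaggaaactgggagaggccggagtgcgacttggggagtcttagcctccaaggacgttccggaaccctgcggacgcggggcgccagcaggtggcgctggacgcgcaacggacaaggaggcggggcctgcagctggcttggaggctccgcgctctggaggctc

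The KLK3 window held the androgen response half-site, beginning 170 bases before the start, and a TATA box on the minus-strand reading beginning 28 bases before it. KLK2 held a TATA box in the same reading, 34 bases before its start, and no match to AGAACA. The windows of these neighbouring paralogs shared an unbroken run of 80 bases, which was found in no other of 35116 promoter windows. The SPDEF window held the forkhead core TATTTAC on the opposite strand, 49 bases before the start. FOXA1 and STEAP1 held none of the 5 motifs. Of all windows, 12.4% held AGAACA, 10.7% TATAAA, 2.98% TGTTTAC, 2.39% TATTTAC and 3.42% CCGGAAGT. A match is a description of the letters and not a binding site, and no binding was measured here.

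The members fell into a bright and a dim set against the median of all values, 52.5. FOXA1, SPDEF, STEAP1 and FOXA2 had probe sets above it, whereas all 11 probe sets of ERG, KLK2, KLK3, TMPRSS2 and ACP3 lay below it on all 6 arrays. By probe set, 7 of 21 had a mean above the median in both groups and 12 below it in both. The means of the remaining pair, FOXA2 210103_s_at and SPDEF 214403_x_at, lay on different sides of it in the groups. The FOXA2 probe set went from 0.762 to 2.26 times the median without overlap. The SPDEF probe set stayed close to the median, at 0.951 and 1.03 times it with overlapping groups. In all, 6 probe sets were under the 25th percentile of the table, 13.0, on every array. No detection calls were available, so a dim value is a low position in the table and not a proof of absence; probe sets differ in sensitivity, so levels are set against the table and not against each other.

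**Figure D1:**
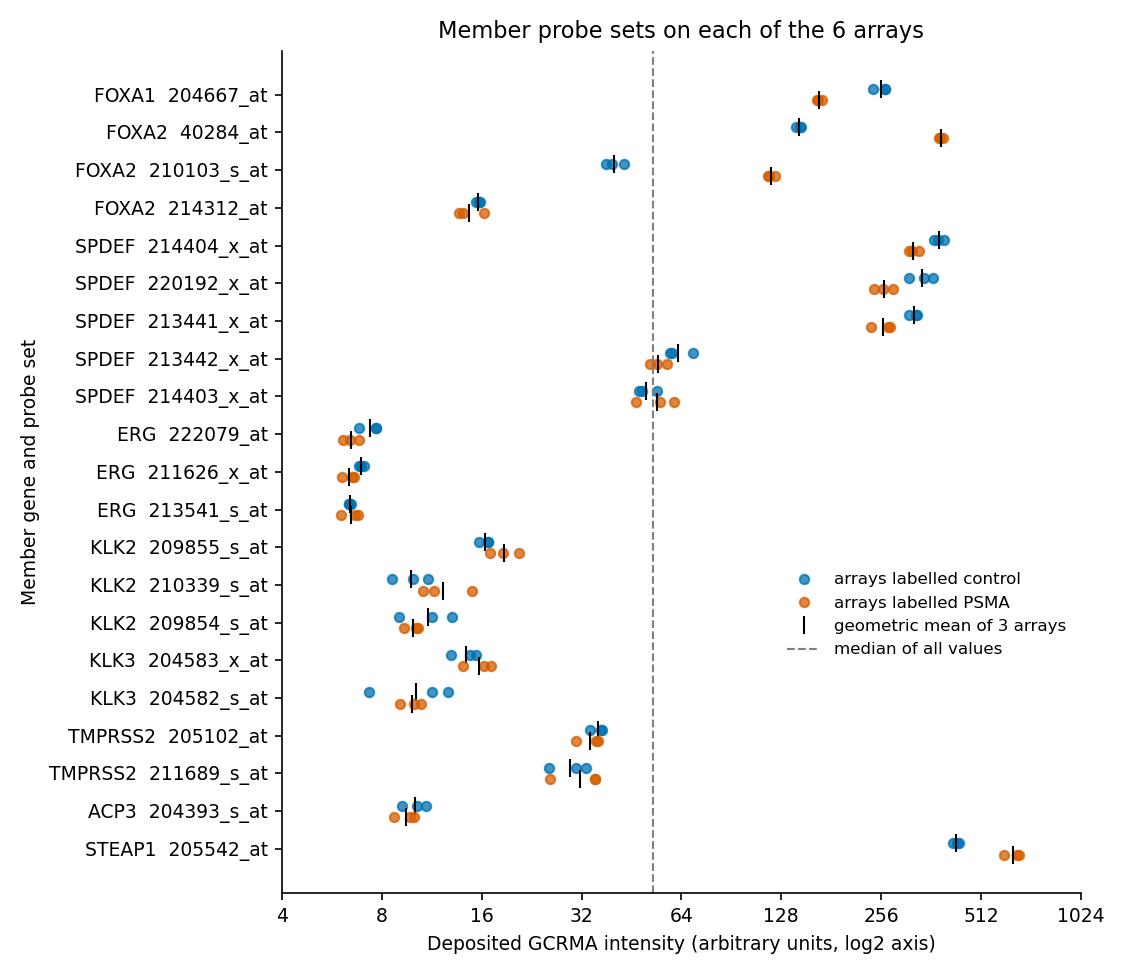
Deposited GCRMA intensity (arbitrary units, log2 axis) of the 21 member probe sets on each of the 3 arrays labelled control (blue) and 3 labelled PSMA (orange), with the geometric mean of each group as a vertical tick and the median of all values (52.5) as a dashed line. FOXA2 40284_at and STEAP1 sit to the right on the orange points, FOXA1 and the 3 bright SPDEF probe sets sit to the right on the blue points, and the kallikrein, ERG, ACP3 and TMPRSS2 probe sets all lie left of the dashed line.

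FOXA2 showed the largest difference of the members, with 2.67-fold and 2.97-fold more signal on the arrays labelled PSMA by its brighter probe sets. Probe set 40284_at read log2 7.15, 7.19 and 7.19 on arrays labelled control and 8.59, 8.58 and 8.62 on arrays labelled PSMA. The 2 groups lay far apart compared with the gaps inside each. In intensity this was 145 ± 2.30 (SD, n = 3) against 387 ± 6.05, a 2.67-fold increase (log2 difference 1.42, SE 0.0415, limma adjusted p = 8.8e-08). Its level moved from percentile 65.7 to percentile 81.1 of all probe sets. Probe set 210103_s_at, annotated to the same accession, read log2 5.24, 5.31 and 5.42 against 6.87, 6.93 and 6.88, again without overlap. That was 40.1 ± 2.53 against 119 ± 3.00, a 2.97-fold increase (log2 difference 1.57, SE 0.0557, limma adjusted p = 2.0e-07). It entered the test only through the arrays labelled PSMA, since all 3 control arrays lay below the median. The third FOXA2 probe set, 214312_at, was dim in both groups, at 15.6 ± 0.220 and 14.7 ± 1.39, with a log2 difference of -0.10 (95% interval -0.27 to 0.08 without the filter), so only 2 of the 3 probe sets carried the increase. Among all 11303 tested probe sets, 215 differed by more than 40284_at and 172 by more than 210103_s_at.

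FOXA1, the luminal pioneer factor, was lower on the arrays labelled PSMA. Its probe set 204667_at read log2 8.04, 8.04 and 7.92 on arrays labelled control and 7.41, 7.36 and 7.37 on arrays labelled PSMA. The lowest control array was above the highest array labelled PSMA. In intensity this was 256 ± 11.9 (SD, n = 3) against 167 ± 3.39, or 1.54-fold lower (log2 difference -0.62, SE 0.0495, limma adjusted p = 1.5e-05). It remained above the table median, at 4.88 times it in the first group and 3.17 times in the second. The 2 FOXA relatives thus moved in opposite directions on the same arrays.

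SPDEF, which supports goblet and prostate secretory cells, was slightly lower by its brightest probe sets. Probe set 214404_x_at read log2 8.57, 8.53 and 8.63 on arrays labelled control and 8.28, 8.38 and 8.31 on arrays labelled PSMA. The groups did not overlap, and the gap between them was slightly wider than the range inside each. It read 382 ± 14.0 (SD, n = 3) against 320 ± 10.7, 1.19-fold lower (log2 difference -0.26, SE 0.0488, limma adjusted p = 0.00209). The probe sets 220192_x_at and 213441_x_at gave log2 differences of -0.38 and -0.31 (limma adjusted p = 0.00203 and 0.00251), also without overlap. The probe sets near the median disagreed. For 213442_x_at the log2 difference was -0.20 (limma adjusted p = 0.0400), and the call was lost without control replicate 1 (-0.13, adjusted p = 0.12), without PSMA replicate 4 (-0.20, adjusted p = 0.093) and without PSMA replicate 6 (-0.16, adjusted p = 0.12). For 214403_x_at it was 0.11 with overlapping groups (limma adjusted p = 0.353), and with 1 array left out it ran from 0.02 (without PSMA replicate 6, adjusted p = 0.85) to 0.21 (without PSMA replicate 4, adjusted p = 0.044), the only left-out array that gave a call. All 5 names end in _x_at, the maker's mark for probe sets that may bind other transcripts, and they measure 1 gene, so they are not independent evidence.

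STEAP1, a cell-surface member of a family of metalloreductases and a target of antibody-based therapies in prostate cancer, was higher on the arrays labelled PSMA. Probe set 205542_at read log2 8.72, 8.76 and 8.78 on arrays labelled control and 9.38, 9.36 and 9.24 on arrays labelled PSMA. All 3 arrays labelled PSMA lay above all 3 control arrays. In intensity it read 431 ± 9.52 (SD, n = 3) against 642 ± 34.7, a 1.49-fold increase (log2 difference 0.57, SE 0.0523, limma adjusted p = 3.2e-05). Its position was percentile 82.4 and percentile 87.2 of all probe sets. STEAP1 has a close paralog, STEAP1B, and whether this probe set also binds its transcript was not examined.

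The androgen-driven secretory genes were dim, with group means between percentile 16.5 and percentile 32.8 for all probe sets of KLK2, KLK3 and ACP3. The KLK3 probe set 204583_x_at read log2 3.89, 3.94 and 3.69 on arrays labelled control and 3.81, 4.02 and 4.10 on arrays labelled PSMA. The other, 204582_s_at, read 3.50, 2.87 and 3.66 against 3.32, 3.18 and 3.39. Both pairs of groups overlapped, with log2 differences of 0.14 (95% interval -0.09 to 0.36) and -0.05 (-0.49 to 0.40) in the fit without the filter. The 3 probe sets of KLK2, a protease that activates prostate-specific antigen, ran from 8.55 to 20.6 in intensity. The brightest, 209855_s_at, read 16.7, 15.7 and 16.6 on arrays labelled control and 18.5, 16.9 and 20.6 on arrays labelled PSMA, non-overlapping but 0.19 apart on the log2 scale, which did not pass (limma adjusted p = 0.129 without the filter). Probe set 210339_s_at read log2 3.10, 3.31 and 3.46 against 3.52, 3.90 and 3.41, which overlapped at a log2 difference of 0.32 (95% interval -0.01 to 0.65). Probe set 209854_s_at pointed the other way, with log2 3.17, 3.50 and 3.70 against 3.36, 3.34 and 3.22 and a log2 difference of -0.15 (-0.45 to 0.15), so the 3 KLK2 probe sets gave no common direction. ACP3, prostatic acid phosphatase, read 10.2, 9.19 and 10.8 on arrays labelled control and 9.99, 8.70 and 9.71 on arrays labelled PSMA, and these overlapped.

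TMPRSS2, whose androgen-driven promoter is the usual fusion partner of ERG, lay closer to the table median, at 0.681 and 0.644 times the table median in the 2 groups by 205102_at and 0.562 and 0.602 times by 211689_s_at. Probe set 205102_at read 33.9, 36.7 and 36.8 on arrays labelled control and 30.7, 35.3 and 35.7 on arrays labelled PSMA. The values overlapped, and the log2 difference was -0.08 (95% interval -0.26 to 0.10 without the filter). For 211689_s_at the difference was 0.10 (-0.24 to 0.44). ERG lay at the bottom of the table, between percentile 5.64 and percentile 10.3 in the group means, with all values of its 3 probe sets between 6.02 and 7.65. Its probe set 222079_at read 7.65, 6.81 and 7.65 against 6.80, 6.42 and 6.12. The groups nearly touched, and the log2 difference of -0.19 did not pass (limma adjusted p = 0.0816 without the filter). Probe set 211626_x_at read 6.91, 7.06 and 6.82 against 6.05, 6.58 and 6.47, separated by a small gap, and the log2 difference was -0.12 (limma adjusted p = 0.147 without the filter, not past the threshold). Probe set 213541_s_at overlapped, with a difference of 0.02 (95% interval -0.13 to 0.16).

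**Figure D2:**
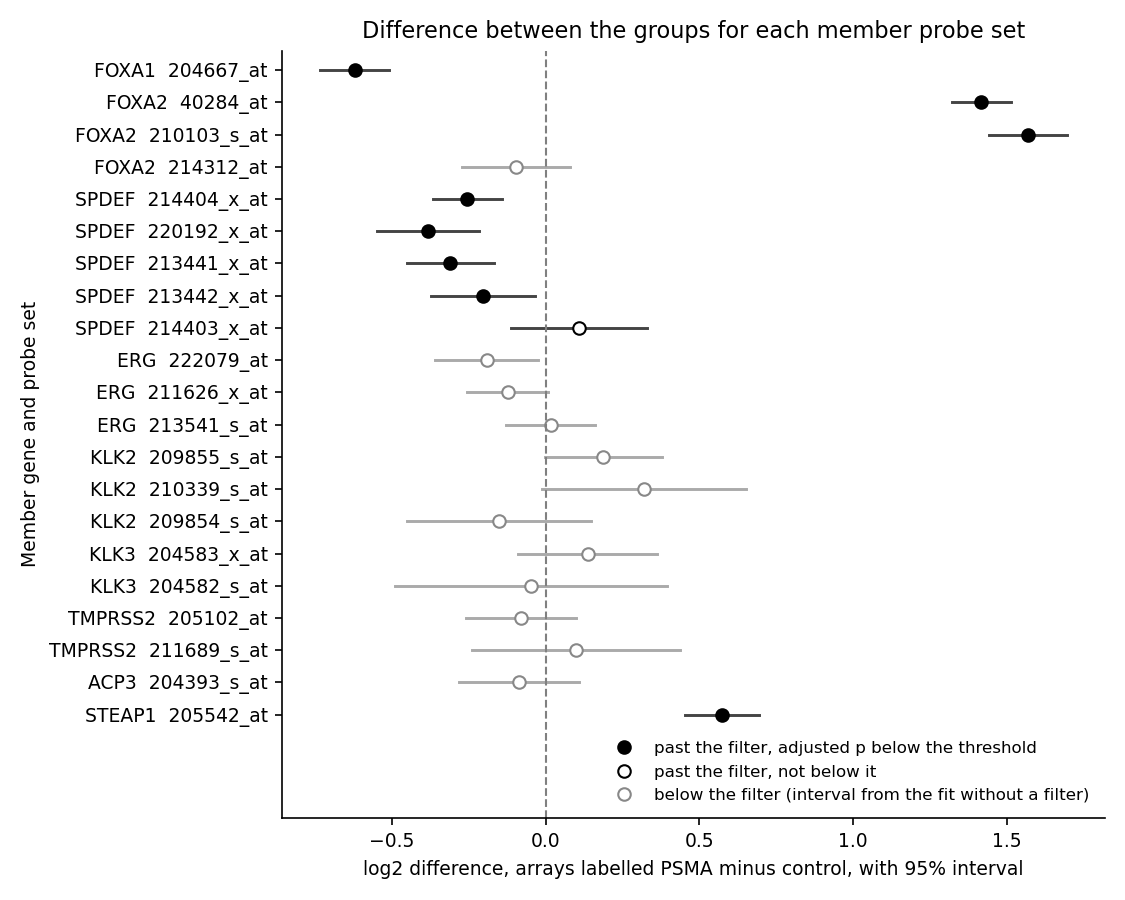
Log2 difference (arrays labelled PSMA minus arrays labelled control, n = 3 each) with its 95% interval for the 21 member probe sets. Filled points passed the limma threshold, open black points did not, and grey points are probe sets below the filter with intervals from the fit without it; the 2 FOXA2 points at 1.42 and 1.57 stand farthest from 0, while FOXA1 lies at -0.62 and STEAP1 at 0.57.

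A probe set was tested where at least 3 of the 6 arrays lay above the table median, which 9 of the 21 member probe sets, from 4 genes, did. Of these 9, 8 passed the limma threshold of 0.05 (3 higher, 5 lower), beside 60.6% of all tested probe sets (28.2% higher, 32.4% lower). With 5 of the 9 from SPDEF alone, and 1 let in only by the group where it was high, this count is a description. Without the filter, 7 of 21 passed (3 higher, 4 lower), beside 32% of all probe sets. The groups were fully separated in 11 of 21, beside 44.9% of all probe sets. The median size of a difference over all tested probe sets was 0.21 on the log2 scale, and 11.8% of them differed by more than FOXA1, 13.6% by more than STEAP1 and 26.5% to 42.8% by more than the 3 bright SPDEF probe sets. Tested against a minimum fold of 1.5, 2 members passed, both of FOXA2 (limma adjusted p = 1.9e-06 and 4.1e-06), beside 6.61% of all; FOXA1, SPDEF and STEAP1 did not.

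The nearest tested genes along the chromosome were set beside the 4 bright members, the 5 on each side in reference order. Of all tested genes, 29.6% were higher and 32.8% lower. Next to FOXA2 on chromosome 20, 7 of the 10 neighbours were higher and 0 lower, with a median log2 difference of 0.28 and a highest value of 0.75 for CST4, a salivary cystatin. FOXA2 itself, at 1.42, stood above all 10. Next to FOXA1 on chromosome 14, 5 of 10 were higher and 1, GEMIN2, lower, with a median of 0.22, and the nearest tested gene on each side, MBIP and SEC23A, had differences of 0.52 and -0.13. FOXA1 at -0.62 was below all 10. Next to SPDEF, 2 of 10 were higher and 4 lower (median -0.07). Next to STEAP1, 4 were higher and 2 lower (median 0.02). CDK14, a kinase gene and the next tested gene in reference order, rose by 1.12. How the differences of these neighbours relate to those of the members was not tested.

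**Figure D3:**
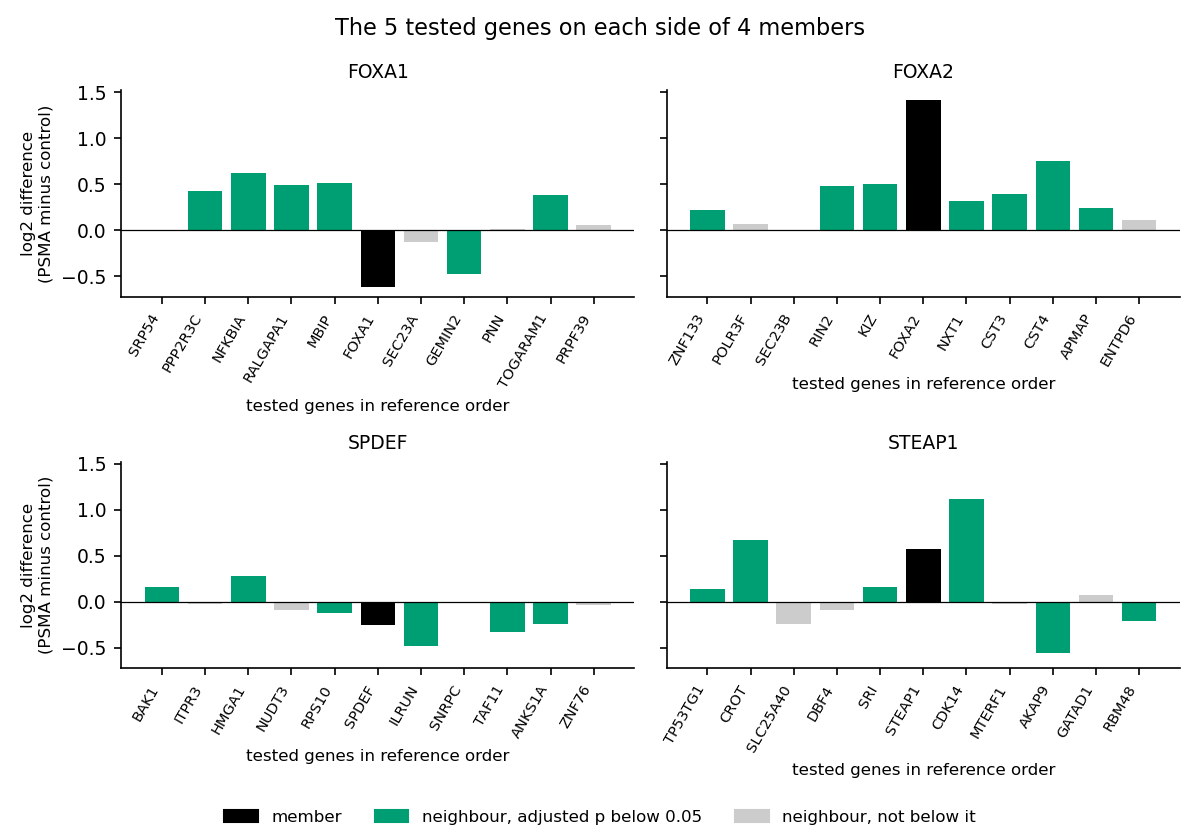
Log2 difference (arrays labelled PSMA minus control) of FOXA1, FOXA2, SPDEF and STEAP1 (black) and of the 5 tested genes on each side in reference order (green where the limma adjusted p was below 0.05, grey where it was not), each gene by its brightest probe set. In the FOXA2 panel 7 of 10 neighbours are higher, POLR3F, SEC23B and ENTPD6 did not pass, and FOXA2 is highest, whereas FOXA1 points down beside raised neighbours on its left.

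Relatives of the members were read by the brightest probe set of each gene, and 62.4% of all genes tested so passed. In the kallikrein family, KLK5, a protease of shedding skin and other stratified epithelia, fell from 291 ± 22.6 to 83.4 ± 8.94 (SD, n = 3; log2 difference -1.81, limma adjusted p = 9.2e-07). KLK6 had a difference of -0.12 that did not pass, and the other 9 kallikreins with a probe set were below the filter, like KLK2 and KLK3. Among ETS factors, 3 of 13 tested genes were higher and 4 lower. ETV1, another ETS gene that is fused in prostate tumours, fell by 0.79 and ELK1 by 0.44 on the log2 scale, while the epithelial factor ELF3 rose by 0.60 and ELF1 by 0.33. The ETS gene EHF, below the filter, read 17.7 ± 3.49 against 7.58 ± 0.80 without overlap. Its log2 difference was -1.21 (limma adjusted p = 0.00064 without the filter). Among FOX factors 2 of 8 were higher and 3 lower, with FOXM1, a mitotic factor, at -0.48, FOXJ2 at -0.16, FOXD1 at 0.30 and FOXN3 at 0.20 on the log2 scale.

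STEAP3, the endosomal ferrireductase of the STEAP family, rose by 0.43 and the transferrin receptor gene TFRC by 0.15 on the log2 scale, and SLC11A2 did not pass (-0.09). Of the membrane serine proteases related to TMPRSS2, ST14, which encodes matriptase, fell from 698 ± 21.2 to 455 ± 17.2 (SD, n = 3), and TMPRSS6, named to complete the count, had a difference of 0.26 that passed (limma adjusted p = 0.0303) though its groups overlapped. The lysosomal acid phosphatase gene ACP2 fell by 0.62 and ACP6 rose by 0.14, with ACP1 at -0.01 and not past the threshold.

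Steroid receptors with their cofactors and androgen-responsive genes went both ways. Of 11 tested receptors and cofactors 2 were higher, 4 lower and 5 did not pass, with a median log2 difference of -0.05 beside -0.01 for all genes. The mineralocorticoid receptor gene NR3C2 fell by 0.83 and FKBP4, a co-chaperone of steroid receptors, by 0.64. The coactivator NCOA2 rose by 0.47 and the glucocorticoid receptor gene NR3C1 by 0.22. GATA2, a partner of FOXA1 at androgen-responsive enhancers, fell from 218 ± 2.52 to 155 ± 7.60 (SD, n = 3); it was named after its values were seen. Of 18 tested androgen-responsive genes 6 were higher and 8 lower (median -0.10). ADAMTS1 fell by 1.61 and NDRG1 by 0.99, while SPOCK1 rose by 0.85 and PLPP1, a lipid phosphatase, by 0.57. FKBP5, a classical androgen-induced gene, was dim at 16.3 ± 3.78 and 15.7 ± 0.752.

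Prostate secretory and tissue markers were mostly dim in both groups. Of 14 genes with a probe set, 12 were below the filter, among them MSMB, a major seminal plasma protein, at 7.20 ± 1.09 and 7.91 ± 0.957 (SD, n = 3). The 2 tested genes were FOLH1 and the prostate homeobox gene HOXB13, which rose from 142 ± 13.1 to 184 ± 16.7 (log2 difference 0.38, limma adjusted p = 0.00445). FOLH1, whose product the plasmid encodes, was read here by 217483_at, its probe set with 1 symbol (log2 difference -1.11). The tested probe sets that it shares with FOLH1B gave log2 differences of -4.09, -4.72 and -5.30.

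Of 14 general luminal epithelial markers with a probe set, 11 were tested and MUC1, PROM1 and TFF3 were below the filter. Of the 11 tested genes 9 fell, 0 rose, and DPP4 and KRT19 did not pass (-0.12 and -0.09), with a median log2 difference of -0.35. Over all tested genes, 29.6% were higher and 32.8% lower, with a median of -0.01. GATA3, a luminal transcription factor, fell from 334 ± 12.8 to 150.1 ± 9.01 (SD, n = 3) and the secretory-pathway gene AGR2 from 3043 ± 113 to 1364 ± 10.3, both by 1.16 on the log2 scale. KRT18 fell by 0.40 and KRT8 by 0.31. Basal markers went both ways, with 5 of 9 higher and 3 lower (median 0.24). S100A2 rose by 1.23 and SNAI2 by 1.0, while DST fell by 0.40 and KRT15 by 0.30; the basal keratin genes KRT5 and KRT14 were below the filter. The summed level of the basal markers was 5891 to 6043 on arrays labelled control and 7810 to 8232 under the PSMA label. S100A2 carried most of this, and without it the other 11 genes summed to 4367 to 4601 and 4516 to 4744, which overlap. The part of this shift in the members' differences was not tested. The difference between these lists was not tested.

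Most neuroendocrine markers, relevant beside FOXA2, were dim. Of 17 with a probe set 14 were below the filter, including the chromogranin gene CHGA at 9.16 ± 0.458 and 10.1 ± 1.08 (SD, n = 3) and the synaptophysin gene SYP at 17.2 ± 1.84 and 18.2 ± 2.03. Of the 3 tested, the polycomb methyltransferase gene EZH2 fell by 0.35 and ENO2 by 0.27 on the log2 scale, and DLL3 did not pass (limma adjusted p = 0.979). Below the filter, the neuronal ubiquitin hydrolase gene UCHL1 read 44.9 ± 1.96 against 18.4 ± 0.693 (log2 difference -1.29, limma adjusted p = 8.9e-06 without the filter) and the adhesion gene NCAM1 28.4 ± 1.36 against 35.9 ± 0.205 (0.34, limma adjusted p = 0.00324 without the filter), both without overlap. Among endothelial markers, relevant beside ERG, PECAM1 read 50.6 ± 6.59 and 58.2 ± 6.60 and did not pass, and CDH5 lay at 6.44 ± 0.252 and 7.28 ± 0.308. KDR, a receptor for vascular endothelial growth factor that was below the filter, read 10.2 ± 0.333 against 29.9 ± 6.02 without overlap (log2 difference 1.53, limma adjusted p = 0.0002 without the filter). The 8 endothelial markers summed to 144 to 170 on arrays labelled control and 177 to 189 on arrays labelled PSMA, and the 7 without KDR to 134 to 160.4 and 144 to 156, which overlap. Of 10 fibroblast and smooth muscle markers, COL1A1 alone was tested, at 83.1 ± 7.44 and 90.5 ± 4.19, and did not pass. The proteoglycan gene LUM, below the filter, read 35.1 ± 7.04 against 6.26 ± 1.16 (log2 difference -2.49, limma adjusted p = 6.2e-05 without the filter). The part of these markers in the members' differences was not tested.

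**Figure D4:**
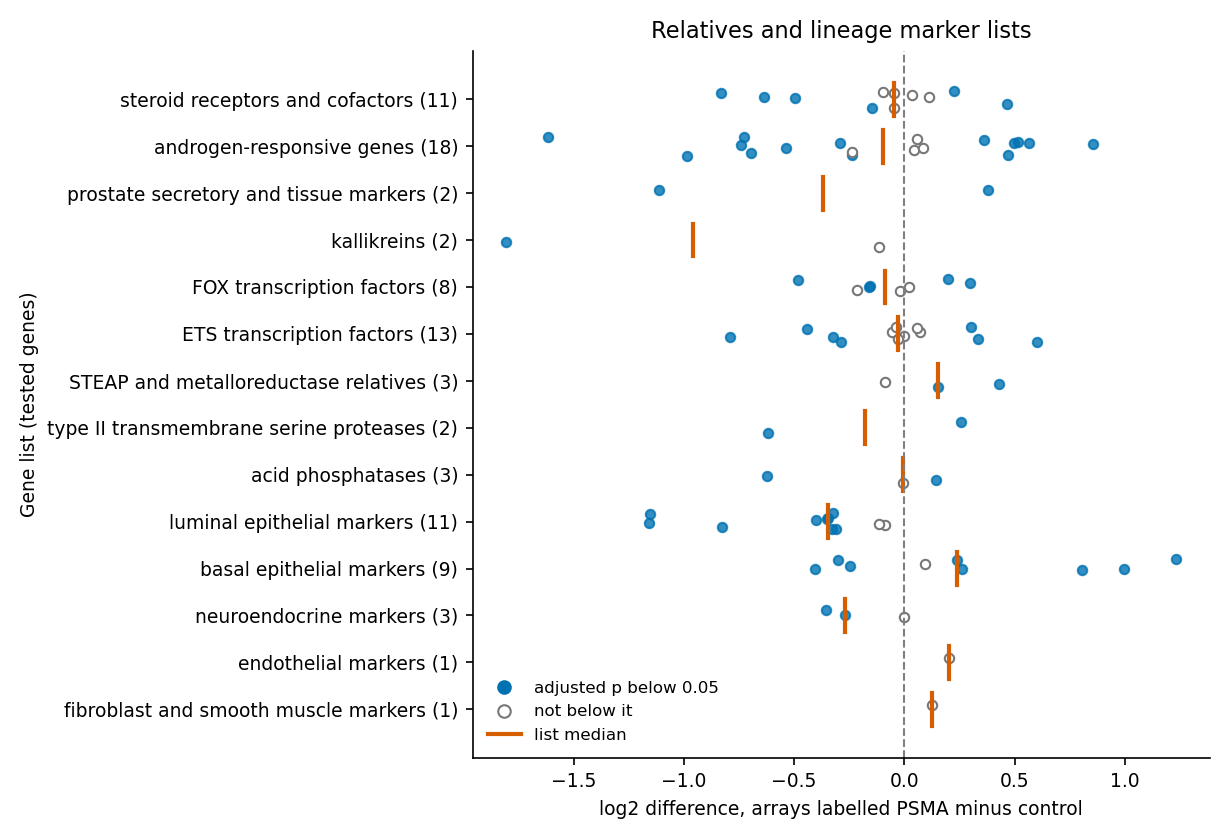
Log2 differences (arrays labelled PSMA minus control) of the tested genes of 14 lists of relatives and lineage markers, each gene by its brightest probe set, filled where the limma adjusted p was below 0.05, with the list median as an orange bar and the number of tested genes in brackets. Tested luminal epithelial markers all lie left of 0, while the androgen, FOX, ETS and basal lists spread to both sides.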

How the data were processed

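Total RNA of 6 PC3 samples was hybridised to Affymetrix arrays. The authors deposited processed intensities, which the submitters' processing notes credit to GCRMA, with version and scale not given in the sources used here. These deposited intensities ran from 3.76 to 17455 and were taken as linear. GCRMA pulls dim probe sets to a common low value, which shrinks differences there. Genes were named from the platform annotation (probe sets with 1 symbol only) and placed with RefSeq (GRCh38.p14).

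Values were log2-transformed with no pseudocount. The 62 control probe sets and those not above the median on at least 3 arrays were left out, leaving 11303, on which limma 3.58.1 (lmFit, eBayes; R 4.3.3) was run with Benjamini-Hochberg adjustment over all of them and a threshold of 0.05. The fit was tested on simulated data. A gene in a list (7035 tested genes) was read by its brightest probe set.

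The members and lists were chosen with earlier results of these data known. All member probe sets were named; in each list, the 2 largest increases and decreases past the threshold without overlap were named, or the brightest gene where there was none, and any other gene after its values were seen. Alternatives covered the filter, a floor, a pseudocount, normalization, the variance model, the unit of the fit, a minimum fold and each array left out.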

Additional observations from a re-analysis of the deposited data

How the results depend on the processing

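No member probe set that was tested changed direction under any alternative run. Changes of the filter, the variance model, the unit of the fit and the minimum fold leave each log2 difference as it was. Only the floor, the pseudocount, normalization and the left-out arrays could therefore have changed a direction. The count of tested member probe sets past the threshold was 8; it was 4 of 4 with 1 probe set per gene and 2 of 9 against a minimum fold of 1.5, and ran from 7 to 8 with 1 array left out. Over all probe sets, 6846 passed; 4476 of 7035 passed with 1 probe set per gene, which tests fewer features, and 747 against the minimum fold, with 6078 to 6822 when 1 array was left out. Of the genes in the lists, 60 passed; 11 passed against the minimum fold, and 54 to 64 with 1 array left out (this count's alternatives were added after seeing the data). The number of member probe sets above the table median in both groups was 7 under each alternative run for it. These were the floor, the pseudocount, normalization and each array left out. The floor lies below the median and the pseudocount was added to the median as well, so those could hardly change this count. FOXA1, FOXA2, STEAP1 and the 3 bright SPDEF probe sets kept their calls under all alternatives that tested them except the minimum fold, which FOXA2 alone passed. SPDEF 213442_x_at also lost its call without the filter (limma adjusted p = 0.10) and with limma's trend and robust options (adjusted p = 0.07). Its log2 difference was -0.20 in each. These settings change the estimate of its variance, and dropping the filter also changes the number of probe sets adjusted over. Its SE was 0.0737 in the main fit and 0.0816 without the filter. No paired analysis was possible because the groups share no replicate number. The precision is limited by the 3 arrays in each group.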
